A study of Homo sapiens with 9 samples.

Results

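Voltage-gated sodium, calcium and potassium channels, with the other potassium channels and the subunits that attach to them, are described here in HCN-2 cells transfected with microRNA mimics. The members were chosen by symbol: every row of the array table with exactly 1 gene symbol that begins with KCN, SCN or CACN and follows the naming pattern of these families. The rule took 130 rows for 121 genes, of 36176 such rows for 33616 genes in all. A total of 8 members had more than 1 row, and the row with the highest mean over the arrays stands for its gene.

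HCN-2 is an established line, supplied by ATCC and named as human cortical neuronal cells. The cells received 3 µL of a 20 µM mimic of hsa-miR-140-3p or hsa-miR-126-5p, or of a scrambled control, with the HiPerFect transfection reagent, and total RNA was taken 24 h after transfection. Each of the 3 groups has 3 arrays, so 9 arrays in all, and the study set them side by side to ask how the mimics act on the differentiation of these cells. All groups share the transfection, and no untransfected cells were analysed here. Whether the arrays of a group stem from separate cultures is not in the labels, and the p-values therefore measure only the spread between these arrays, which may be technical.

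The mimics stand for natural microRNAs, whose mature sequences are shown because their seeds separate the treated groups. They come from RefSeq (GRCh38.p14), are 21 bases long and are written 5′ to 3′, with the seed at bases 2 to 8 in capitals. The chemistry of the purchased mimics was not given in the sources used here.
hsa-miR-140-3p: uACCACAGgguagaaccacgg
hsa-miR-126-5p: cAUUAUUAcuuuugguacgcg
The first lies in MIR140 at chr16:69933142-69933162 on the plus strand, and the second in MIR126 at chr9:136670616-136670636 on the plus strand. Their seeds, ACCACAG and AUUAUUA, are different. Sites for these seeds in channel transcripts were not searched.

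A channel's alpha (or alpha1) subunit forms the pore, and its beta, gamma, alpha2delta, KCNE, KCNIP and KCNMB partners set its gating and its number at the membrane. Sodium channels carry the upstroke of the action potential, potassium channels repolarise the membrane and hold its resting level, and calcium channels couple voltage to secretion and gene expression. Mature cortical neurons are known for strong expression of several pore-forming subunits.

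The values are log2 signals with no detection call, so levels were read against the 23 background rows of the same table. The highest background row of an array lay between 7.78 and 10.40 and the mean of the background rows between 3.67 and 3.89. The row of the GC03 background probes was the highest on 8 of the 9 arrays. Arrays of the same group correlated at 0.990 to 0.994 over all rows with 1 symbol, and arrays of different groups at 0.987 to 0.992.

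The labelled cell type was compared with its markers. Of 15 measured neuron markers only NEFM, a neurofilament subunit, was above the highest background row on all 9 arrays, with a mean of 13.06. MAP2, a dendritic protein, was above it on 4 arrays, and RBFOX3, SNAP25, SYN1, SLC17A7 and DCX were above it on 0. Of 6 fibroblast markers 5 were above it on all arrays (COL1A1, COL1A2, DCN, LUM and PDGFRB), as were 3 of 6 muscle markers (ACTA2, MYH11 and CNN1). No marker of endothelial cells, microglia, oligodendrocytes or astrocytes was above it on all arrays. The summed level of each list is given as its mean per array. The neuron mean ran from 5.65 to 5.87 in the control, 5.66 to 5.91 with miR-140-3p and 5.63 to 5.69 with miR-126-5p. The fibroblast mean ran from 15.6 to 16.0, 15.9 to 16.1 and 15.8 to 15.9 in the same order, and the muscle mean from 9.06 to 9.25, 9.16 to 9.39 and 9.09 to 9.14. At the study's unadjusted thresholds (p under 0.05 with a change of more than 1.25-fold), which 8.54% of all genes passed for miR-140-3p, 10.6% for miR-126-5p and 9.16% between the mimics, a few markers differed. After miR-140-3p the neuron marker NEFM and the fibroblast marker FAP were higher than the control, and the neuron markers MAP2 and ELAVL4 and the endothelial TEK lower. After miR-126-5p FAP and the astrocyte marker ALDH1L1 were higher, and MAP2, the fibroblast marker COL1A1 and the progenitor markers HES5 and NES lower. Between the mimics NEFM, COL1A1 and COL1A2 were higher with miR-140-3p and TEK lower. No marker of any list passed the adjusted threshold, and no muscle, microglia or oligodendrocyte marker passed the unadjusted thresholds in any comparison. The part of these markers in the channel values was not tested. In bulk RNA, fewer cells of a type and less RNA per cell cannot be told apart.

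Only 9 of the 121 channel genes (7.44%) were above the highest background row on all 9 arrays, beside 13.9% of all 33616 genes. They were SCN9A, CACNA2D1, CACNB3, KCNMA1, KCNMB1, KCNT2, KCNE4, KCNK2 and KCNK15. A further 6 (SCN8A, CACNA1C, CACNB1, CACNB2, KCND2 and KCNJ6) were above it on some arrays, and 106 on none. Without the GC03 row the first count is 14 (11.6%), beside 25.7% of all genes. Against the mean of the background rows it is 94. The median level of the members over the 9 arrays was 4.82, and that of all genes 5.72. Of a list of 60 channel genes known from neurons and glia, 52 had a row with 1 symbol and 6 were above the highest background row on all arrays.

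**Figure D1:**
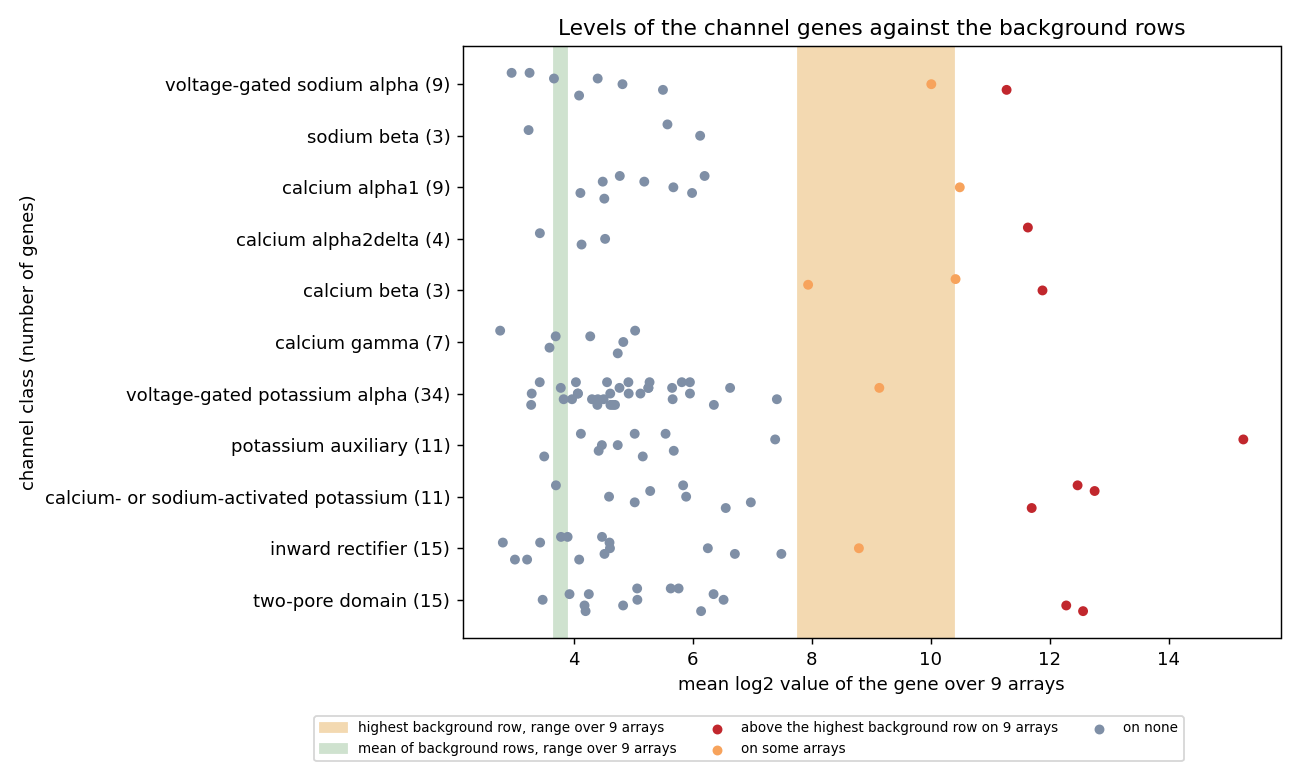
Mean log2 value of each of the 121 channel genes over 9 arrays (x axis) by channel class (y axis, with the number of genes), and the range over arrays of the highest background row (7.78 to 10.40) and of the mean of the background rows (3.67 to 3.89). The 9 red genes lie above the highest background row on every array, the 6 orange genes on some and the 106 grey genes on none.

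Among the 9 sodium channel alpha subunits, SCN9A, the NaV1.7 channel of sensory and sympathetic neurons, was above the highest background row throughout. Its log2 values on arrays 1 to 3 were 11.36, 11.14 and 11.42 in the control, 11.00, 11.07 and 11.22 in the miR-140-3p group, and 11.20, 11.67 and 11.41 in the miR-126-5p group. The groups overlapped, with all arrays within less than 1 log2 unit of each other. SCN8A, the NaV1.6 channel of nodes and axon initial segments, read 9.97, 9.79 and 9.93, then 10.06, 10.10 and 9.94, then 10.15, 10.11 and 10.04 in the same order. It was above the highest background row on 8 arrays, and its miR-126-5p arrays were all above its control arrays. SCN8A has 2 rows. The other, with a mean of 3.55, was below the highest background row on every array and above the mean of the background rows on 2. SCN1A and SCN2A, the main alpha subunits of cortical neurons, had means of 4.82 and 5.50, and SCN3A, the fetal brain form, 4.09. These lay above the mean of the background rows and below the highest background row on every array. The 3 sodium beta genes measured, SCN2B, SCN3B and SCN4B, were above the highest background row on no array.

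Calcium channels had 1 pore subunit above the highest background row on any array, on 8 of the 9. CACNA1C, the L-type CaV1.2 pore, read 10.64, 10.58 and 10.43 in the control, 10.82, 10.48 and 10.37 in the miR-140-3p group, and 10.51, 10.44 and 10.13 in the miR-126-5p group. The groups overlapped, and it stayed below the highest background row on 1 array, the third of miR-126-5p. RefSeq places the protein-coding DCP1B over the CACNA1C locus, so the signal of its row may not be from CACNA1C alone. CACNA1A and CACNA1B, the P/Q-type and N-type pores of nerve terminals, had means of 6.20 and 4.48. The T-type pores CACNA1G, CACNA1H and CACNA1I had means of 5.18, 5.67 and 4.11. All of these were below the highest background row on every array.

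Of the 4 alpha2delta genes, CACNA2D1, the target of gabapentin, was above it on all arrays. It read 11.64, 11.50 and 11.85 in the control, 11.91, 11.71 and 11.66 in the miR-140-3p group, and 11.46, 11.34 and 11.65 in the miR-126-5p group. The miR-126-5p arrays lay under all miR-140-3p arrays and overlapped the control. CACNA2D2 had a mean of 3.43 and was above the mean of the background rows on only 2 arrays. All 3 beta genes measured, which help pore subunits reach the membrane, were above the highest background row on at least 1 array. All 7 gamma genes, among them the AMPA receptor partner CACNG2, were above it on none.

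Potassium channels showed 6 genes above the limit on all arrays, and none was a voltage-gated alpha subunit. KCNMA1, the pore of the calcium-activated BK channel, read 12.16, 12.34 and 12.85 in the control, 12.64, 12.41 and 12.79 in the miR-140-3p group, and 12.34, 12.25 and 12.45 in the miR-126-5p group. The groups overlapped. KCNMA1 has 3 rows, and its other rows, with means of 6.39 and 4.62, were below the highest background row on every array. The log2 differences of the 3 rows, the brightest first, were 0.17, -0.64 and -0.82 for miR-140-3p (adjusted p = 0.85, 0.52 and 0.44, limma) and -0.10, 0.00 and -0.48 for miR-126-5p (adjusted p = 0.90, 1.00 and 0.58). Both dimmer rows passed the unadjusted thresholds as lower after miR-140-3p, and the brightest row did not. The row with the mean of 6.39 was also lower between the mimics (-0.64, adjusted p = 0.49, limma). None passed after adjustment, and the rows disagree in direction for miR-140-3p, so no direction is given for KCNMA1.

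KCNK2, the mechanosensitive TREK-1 leak channel, read 12.33, 12.34 and 12.66 in the control, 12.40, 12.13 and 12.24 in the miR-140-3p group, and 11.90, 12.24 and 12.27 in the miR-126-5p group. Every miR-126-5p array was below every control array. KCND2, the KV4.2 pore of the dendritic A-type current, read 9.38, 8.60 and 8.72, then 10.04, 9.06 and 9.10, then 9.05, 9.15 and 9.12. It was the only one of 34 voltage-gated alpha genes above the highest background row on any array, on 6 of them. KCNJ6, the GIRK2 inward rectifier, read 8.79, 8.97 and 9.25, then 9.05, 8.16 and 8.60, then 8.51, 8.76 and 9.04. It was above the limit on 4 arrays, with overlapping groups. Of the potassium genes on the list of 60, only KCNMA1, KCNK2, KCNE4, KCND2 and KCNJ6 were above the limit on any array. The others had means such as 4.61 for KCNQ3, an M-current pore, and 4.92 for KCNC1, the KV3.1 pore of fast-spiking cells. KCNA1 had a mean of 4.91 and KCNJ10, a glial inward rectifier, 2.80. KCNJ12 and KCNJ18 are near-identical copies, so their rows may not be separate.

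**Figure D2:**
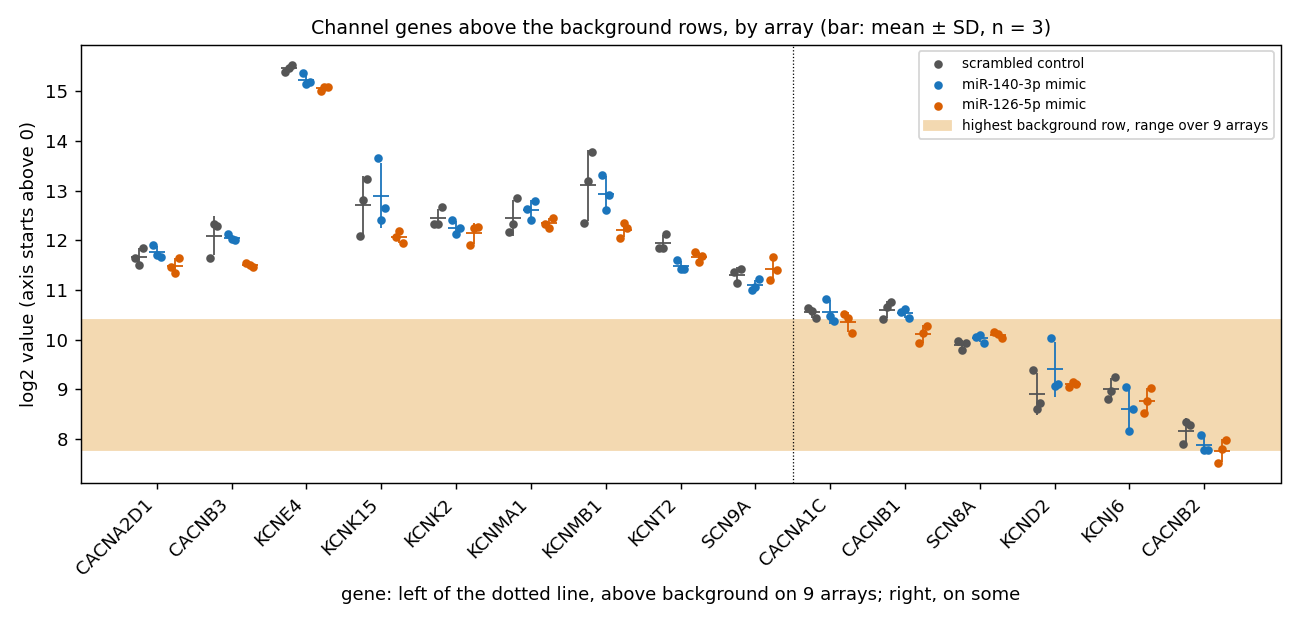
Log2 value on each array (y axis) of the 15 channel genes above the highest background row on all 9 arrays (left of the dotted line) or on some (right), by transfection group, with the mean and SD of 3 arrays and the shaded range of the highest background row. Control array 1 is the lowest of its group in many of these genes, among them CACNB3, KCNMB1, KCNK15, KCNMA1, KCNE4 and CACNB1. In CACNB3, KCNMB1 and KCNK15 the miR-126-5p arrays lie close together.

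The first comparison set miR-140-3p against the scrambled control. A total of 7 members (5.79%) passed the unadjusted thresholds, beside 8.54% of all genes. Of these, 3 were higher, beside 3.37% of all genes, and 4 lower, beside 5.17%. None passed a Benjamini-Hochberg adjusted p of 0.05 over all rows (lowest 0.36, limma), and 0.25% of all genes did. The median log2 difference of the members was 0.02, that of all genes -0.02.

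The lower genes were 3 accessory subunits and 1 pore. KCNE3, a single-pass partner of KCNQ1, read 6.16, 5.99 and 5.58 in the control, 4.99, 5.09 and 5.55 in the miR-140-3p group, and 5.62, 5.32 and 5.56 in the miR-126-5p group. The miR-140-3p arrays were all below the control arrays, 1 of them by a narrow margin. The difference was -0.70 ± 0.20 (SE; 1.62-fold, adjusted p = 0.36), and its unadjusted call was kept under every setting run. Its level was below the highest background row on every array. KCNT2, a sodium-activated pore, read 11.84, 11.84 and 12.13, then 11.60, 11.43 and 11.42, then 11.76, 11.57 and 11.69, and was the only one of the 9 members above background on all arrays to pass the thresholds here, beside 7.13% of all genes as bright. All its mimic arrays lay below its control arrays. The miR-140-3p difference was -0.45 ± 0.16 (SE; 1.37-fold, adjusted p = 0.46), and without control array 3 it was -0.36 with an unadjusted limma p of 0.059.

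KCNMB3, a BK beta subunit, read 7.39, 7.31 and 7.08 in the control, 6.88, 6.91 and 6.66 in the miR-140-3p group, and 6.90, 6.80 and 6.85 in the miR-126-5p group. Both mimic groups lay wholly below the control and close to each other. RefSeq places another protein-coding gene over the KCNMB3 locus, so the signal of its row may not be from KCNMB3 alone. Overlaps in this text are of whole gene spans on either strand. Whether the probes of a row lie in the overlap was not tested. The differences were -0.44 (adjusted p = 0.48) and -0.41 (adjusted p = 0.40), and the comparisons share the control arrays. The unadjusted call was lost without control array 1 for either mimic (differences of -0.38 and -0.34), without the third miR-140-3p array (-0.36), and for miR-126-5p without control array 2 (-0.38) or miR-126-5p array 2 (-0.38) or 3 (-0.41). KCNIP4, a calcium-binding partner of KV4 pores, read 4.33, 4.19 and 4.61, then 4.32, 3.79 and 3.74, then 3.95, 4.06 and 4.04. Its miR-140-3p and control arrays overlapped, and the difference was -0.43 (adjusted p = 0.57). The unadjusted call was lost without any of 7 arrays, with values from -0.45 to -0.31. Each miR-126-5p array is among the 7, and its omission left the difference at -0.43. PACRGL, a protein-coding gene, overlaps its locus in RefSeq.

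On the higher side, KCNN3, the SK3 small-conductance channel, read 4.76, 5.40 and 4.90 in the control, 6.36, 5.19 and 5.34 in the miR-140-3p group, and 5.22, 5.22 and 5.14 in the miR-126-5p group. A single array, miR-140-3p 1, was far above the others. Its difference was 0.61 ± 0.27 (SE; 1.52-fold, adjusted p = 0.58), and 0.24 without that array. The unadjusted call was lost without any of 6 arrays, where the difference ran from 0.24 to 0.61. Each miR-126-5p array is among the 6, though outside this comparison, and its omission left the difference at 0.61. KCNJ1, the renal ROMK channel, read 3.32, 3.80 and 3.76, then 3.91, 4.61 and 4.00, then 3.88, 4.22 and 3.53. Its level lay near the mean of the background rows, and its difference of 0.55 (adjusted p = 0.55) was 0.33 without miR-140-3p array 2 and 0.40 without control array 1. Either omission lost the unadjusted call of KCNJ1. KCNK17, an alkaline-activated leak channel, read 5.96, 6.39 and 5.91, then 6.67, 6.75 and 6.42, then 6.22, 6.77 and 6.04, and differed by 0.53 (adjusted p = 0.54). All its miR-140-3p arrays were above its control arrays. The call was lost without miR-140-3p array 1 (0.50) or 2 (0.46) or control array 1 (0.47) or 3 (0.44).

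By class, these 7 genes were 3 of 11 calcium- or sodium-activated potassium channel genes, 2 of 11 auxiliary potassium subunits, 1 of 15 inward rectifiers and 1 of 15 two-pore channels, beside 8.54% of all genes. No difference between classes was tested. Groups did not overlap in 4 higher and 7 lower members, beside 4.78% and 7.56% of all genes.

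The second comparison set miR-126-5p against the scrambled control. A total of 8 members (6.61%) passed the unadjusted thresholds, beside 10.6% of all genes. All 8 were lower, beside 6.93% of all genes, and 0 were higher, beside 3.62%. None passed the adjusted threshold (lowest adjusted p = 0.31, limma), and 0.408% of all genes did. The median difference of the members was -0.08 and that of all genes -0.04, with 80 members below 0 and 41 above. Of all genes 18776 were below 0 and 14840 above. Leaving out 1 array moved the median of the members from -0.15 (without control array 1) to -0.01 (without control array 2). Of the 9 members above background on all arrays, 3 passed the unadjusted thresholds, beside 13.7% of all genes as bright.

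KCNMB1, the BK beta subunit of smooth muscle, read 12.35, 13.21 and 13.78 in the control, 13.31, 12.61 and 12.91 in the miR-140-3p group, and 12.06, 12.35 and 12.25 in the miR-126-5p group. The lowest control array nearly met the highest miR-126-5p array, and the control spread exceeded that of the miR-126-5p arrays. The difference was -0.89 ± 0.30 (SE; 1.86-fold, adjusted p = 0.33). Without control array 1 it was -1.27, with an adjusted p of 0.037, and without control array 3 it was -0.56, with an unadjusted p of 0.066. RefSeq places KCNIP1 over the KCNMB1 locus, and the KCNIP1 row had a mean of 4.74, below the highest background row on every array. The muscle marker mean per array is given above; its part in the KCNMB1 values was not tested.

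Both calcium beta genes that passed the unadjusted thresholds were lower on every miR-126-5p array. CACNB3, the neuronal beta3 subunit, read 11.64, 12.34 and 12.29 in the control, 12.12, 12.02 and 12.02 in the miR-140-3p group, and 11.55, 11.50 and 11.46 in the miR-126-5p group. The miR-126-5p arrays were below the arrays of both other groups, of which control array 1 was the lowest. The difference from the control was -0.59 ± 0.19 (SE; 95% interval -1.01 to -0.17, 1.50-fold, adjusted p = 0.31), and -0.81 with an adjusted p of 0.044 without control array 1. CACNB1, the beta1 subunit first known from muscle, read 10.41, 10.65 and 10.76, then 10.56, 10.62 and 10.43, then 9.92, 10.13 and 10.28. Every miR-126-5p array was below every other array, and the difference was -0.49 ± 0.17 (SE; 1.41-fold, adjusted p = 0.32), or -0.40 without miR-126-5p array 1, where the unadjusted call was lost. CACNB2, the heart and brain beta2 subunit, read 7.89, 8.34 and 8.28, then 8.08, 7.78 and 7.78, then 7.52, 7.80 and 7.97. Its difference was -0.40 (adjusted p = 0.48), with overlapping groups. None of the 3 beta genes passed after adjustment.

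KCNE4, a partner that damps KV1 and KCNQ1 currents, read 15.40, 15.47 and 15.54 in the control, 15.38, 15.15 and 15.19 in the miR-140-3p group, and 15.01, 15.08 and 15.10 in the miR-126-5p group. The groups were separate, with the control on top and miR-126-5p at the bottom. The difference from the control was -0.41 ± 0.15 (SE; 1.33-fold, adjusted p = 0.37), or -0.38 without miR-126-5p array 1, with an unadjusted p of 0.055. The miR-140-3p difference from the same control arrays was -0.23 (adjusted p = 0.71).

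The other genes past the unadjusted thresholds were below the highest background row on every array. KCND3, the KV4.3 A-type pore, read 6.10, 6.19 and 6.29 in the control, 6.22, 5.53 and 6.07 in the miR-140-3p group, and 5.90, 5.47 and 5.77 in the miR-126-5p group, a miR-126-5p difference of -0.48 (adjusted p = 0.43). Its call was lost without miR-126-5p array 2 (-0.36) or 3 (-0.51) or control array 2 (-0.48) or 3 (-0.43). CACNG4, a gamma subunit that acts on AMPA receptors, read 3.84, 3.93 and 3.62, then 3.41, 3.82 and 3.68, then 3.33, 3.22 and 3.44. The difference was -0.47 (adjusted p = 0.36), or -0.42 without miR-126-5p array 2 and -0.40 without control array 2. Either omission lost the unadjusted call of CACNG4. Its level lay about the mean of the background rows. KCNJ9, the GIRK3 inward rectifier, read 3.02, 3.15 and 3.20, then 3.14, 3.01 and 3.20, then 2.87, 2.68 and 2.80. It was below the mean of the background rows on every array. Its difference of -0.34 (adjusted p = 0.47) lost its unadjusted call without any of 6 arrays, where it ran from -0.38 to -0.29. The third miR-140-3p array is among the 6, though outside this comparison. Groups did not overlap in 2 higher and 14 lower members, beside 5.66% and 11.1% of all genes.

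**Figure D3:**
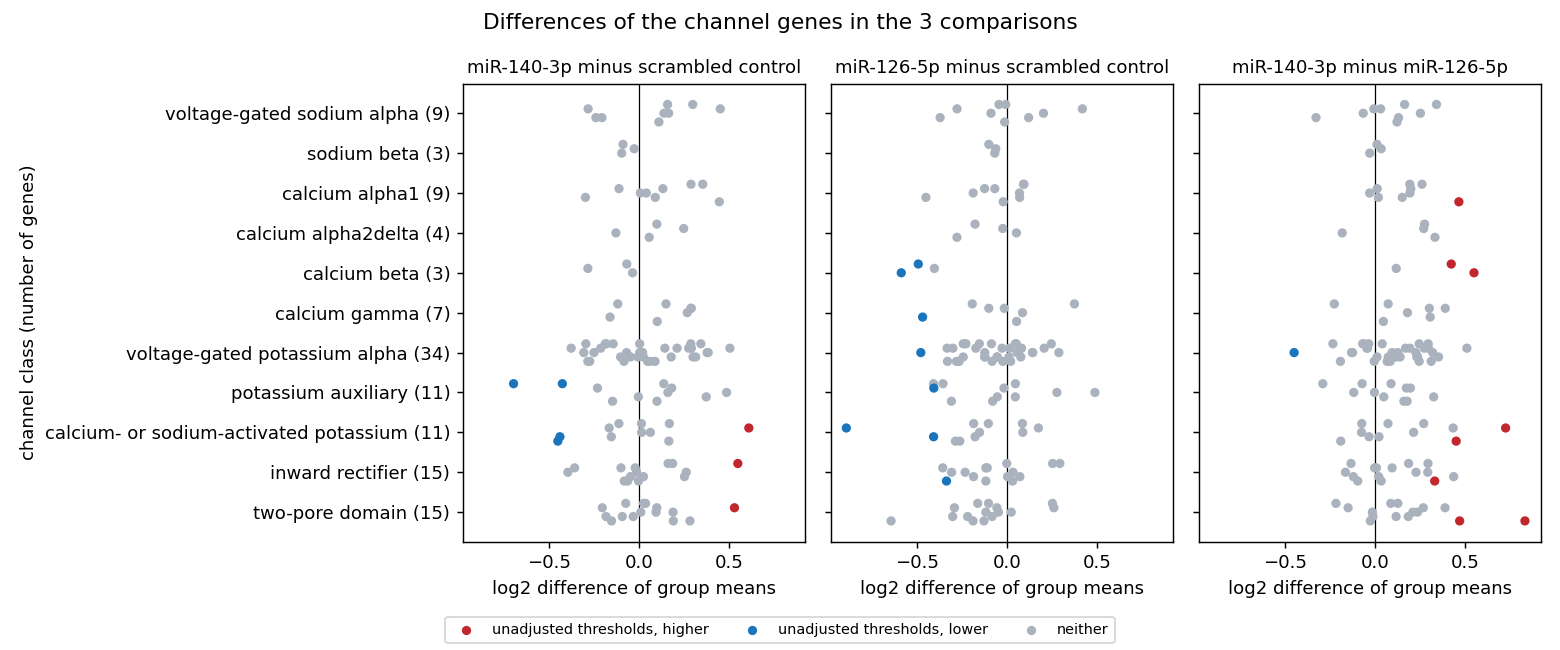
Log2 difference of group means (x axis) of each of the 121 channel genes by class (y axis) in the 3 comparisons, which share arrays. Colours mark the genes past the unadjusted thresholds, 3 higher and 4 lower in the left panel, 8 lower in the middle and 8 higher and 1 lower in the right; none passed after adjustment over all rows.

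The third comparison set the mimics against each other and shares its arrays with the first and second. A total of 9 members (7.44%) passed the unadjusted thresholds, beside 9.16% of all genes. Of these, 8 were higher with miR-140-3p, beside 5.12% of all genes, and 1 lower, beside 4.04%. The lowest adjusted p among members was 0.46 (limma), and 0 of all genes passed the adjusted threshold. At an unadjusted p under 0.05, 3081 genes passed. The median difference of the members was 0.12 and that of all genes 0.02, with 85 members above 0 and 36 below. Of all genes 17664 were above 0 and 15952 below. Leaving out 1 array moved the median of the members from 0.03 (without miR-140-3p array 1) to 0.18 (without miR-140-3p array 3). Groups did not overlap in 16 higher members and 1 lower, beside 9.3% and 6.68% of all genes.

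KCNK15, a two-pore channel of the TASK group, read 12.08, 12.82 and 13.25 in the control, 13.66, 12.41 and 12.64 in the miR-140-3p group, and 12.07, 12.18 and 11.95 in the miR-126-5p group. The miR-140-3p arrays were above the miR-126-5p arrays, and control arrays spanned much of both. The difference between mimics was 0.83 ± 0.33 (SE; 1.78-fold, adjusted p = 0.50), and 0.46 without miR-140-3p array 1, where the unadjusted call was lost, as it was without miR-126-5p array 1 (0.84) or 3 (0.78). RefSeq places RIMS4 and the antisense transcript KCNK15-AS1 over this locus, so the signal of its row may not be from KCNK15 alone. KCNMB1, CACNB3 and CACNB1 were also higher with miR-140-3p, by 0.73, 0.55 and 0.42 on the log2 scale (adjusted p = 0.52, 0.48 and 0.50). For KCNMB1 the unadjusted call was lost without miR-140-3p array 1 (0.54) or 3 (0.74) or miR-126-5p array 1 (0.65) or 3 (0.74). For CACNB1 it was lost without miR-126-5p array 1 (0.33) or miR-140-3p array 1 (0.41) or 2 (0.38), and for CACNB3 it was kept under every setting run. Of the 9 members above background on all arrays, 3 passed the unadjusted thresholds here, beside 11.3% of all genes as bright.

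Of the dimmer genes, KCNK3, the acid-sensitive TASK-1 channel, read 6.11, 5.95 and 6.26 in the control, 6.45, 6.28 and 6.44 in the miR-140-3p group, and 6.03, 5.94 and 5.78 in the miR-126-5p group. Its difference between mimics was 0.47 (adjusted p = 0.46), or 0.40 without miR-126-5p array 3, where the unadjusted call was lost. Its miR-140-3p arrays lay above all others. KCNMB4, the neuronal BK beta subunit, read 6.61, 6.52 and 6.65, then 6.86, 6.80 and 6.61, then 6.13, 6.49 and 6.30. Its difference was 0.45 (adjusted p = 0.48), or 0.36 without miR-126-5p array 1, where the unadjusted call was lost. CACNA1E, the R-type pore, differed by 0.47 (adjusted p = 0.55), or by 0.24 without miR-126-5p array 2. Leaving out any of 5 arrays lost its unadjusted call, with differences from 0.24 to 0.51. Control array 1 is among the 5, though outside this comparison. KCNJ9 differed by 0.33 (adjusted p = 0.55), a call lost without any of 7 arrays, where it ran from 0.28 to 0.38. Control arrays 2 and 3 are among the 7, though outside this comparison. KCNG4, a silent subunit that modifies KV2 pores, was the 1 lower gene, at 3.12, 3.15 and 2.84 with miR-140-3p against 3.61, 3.40 and 3.45 with miR-126-5p. Its difference was -0.45 (adjusted p = 0.48), or -0.39 without miR-126-5p array 1 and -0.35 without miR-140-3p array 3. Either omission lost the unadjusted call. KCNG4 was below the mean of the background rows on every array.

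**Figure D4:**
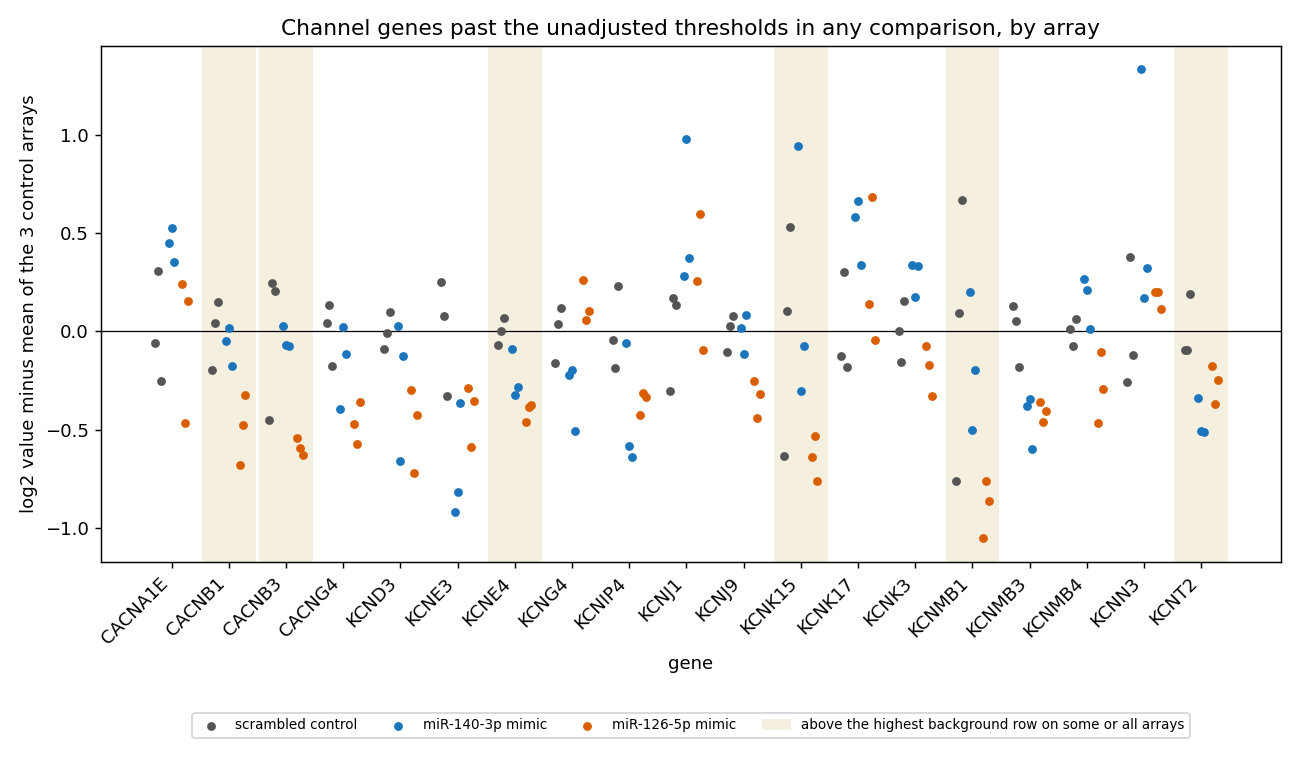
Log2 value on each array minus the mean of the 3 control arrays (y axis) for the 19 channel genes past the unadjusted thresholds in any comparison (x axis), by transfection group; shading marks genes above the highest background row on some or all arrays. The 3 miR-126-5p arrays of CACNB1, CACNB3, KCNE4 and KCNMB1 lie below 0, and KCNN3 rests on 1 high miR-140-3p array.

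Genes outside the rule that act with these channels were read from a list of 36, of which 33 were measured. Above the highest background row on all arrays were 6: HCN2, a pacemaker channel, NALCN, the sodium leak channel, ANK2, an ankyrin that anchors channels, GEM, a small GTPase that restrains calcium channels through their beta subunits, and REST and SIN3A, a repressor of neuronal channel genes and its corepressor. Of the 33 measured, 4 lay above and 4 below the control after miR-140-3p at the unadjusted thresholds. After miR-126-5p 0 lay above and 6 below, and between the mimics 4 were higher with miR-140-3p and 0 lower. Over all genes 3.37% lay above and 5.17% below the control after miR-140-3p. After miR-126-5p 3.62% lay above and 6.93% below, and between the mimics 5.12% were higher with miR-140-3p and 4.04% lower. None passed the adjusted threshold in any comparison. The list's median log2 difference was 0.01, -0.10 and 0.14 in that order, beside -0.02, -0.04 and 0.02 for all genes.

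Among these, REM1, another GTPase that binds calcium channel beta subunits, had differences of -0.90 with miR-140-3p (adjusted p = 0.33) and -1.23 with miR-126-5p (adjusted p = 0.075) from the same control arrays, at a level above the highest background row on 3 arrays. SIN3A differed by -0.78 with miR-126-5p (adjusted p = 0.27), and AMIGO1, a partner of KV2 pores, by -0.67 (adjusted p = 0.18). NALCN differed by 0.48 with miR-140-3p (adjusted p = 0.45).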

How the data were processed

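The authors deposited log2 values in 1 table with a column per array, made with RMA, Affymetrix Expression Console and Partek per the labels' processing notes. RMA background-corrects, quantile-normalizes and summarizes the probes of a row, which can remove a change shared by most genes. The genome build was not given in the sources used here, so no array coordinates are given. The chip is named as Clariom D in the deposited text, with 2 rounds of amplification, and as Clariom S, with another labelling kit, in the study's methods.

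Of 138745 rows, 31 control rows, 1119 with several symbols and 101419 not listed in the annotation were left out. No per-sample column was left unmapped. The 36176 rows left were fitted by limma's lmFit and eBayes (version 3.58.1, R 4.3.3; two-sided tests, 9 arrays in 1 fit, 6 residual degrees of freedom), with Benjamini-Hochberg adjustment over all of them, and the method was tested on simulated data. The members and the lists were chosen with earlier results of these data known. Named genes are those past a threshold (up to 10 in each direction), those above the highest background row on all arrays and listed channel genes known from neurons and glia. The other partner and marker genes were named after their values were seen. Alternatives covered scaling, centring, the variance model, the rows fitted, the background limit and leaving out each array. Leaving out an array outside a comparison changes the variance estimate and not the difference. The number of arrays limits the precision.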

Additional observations from a re-analysis of the deposited data

How the results depend on the processing

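Fitting only rows above the highest background row on at least 3 arrays left 14 members and gave 1 past the unadjusted thresholds for miR-140-3p, 4 for miR-126-5p and 4 between the mimics, in place of 7, 8 and 9 of 121; over all genes the shares were then 10.2%, 17.8% and 14.1%, in place of 8.54%, 10.6% and 9.16%. Without moderation of the variance miR-140-3p gave 3, beside 6.26% of all genes. Leaving out 1 array at a time gave 3 (without control array 3) to 11 (without control array 2) for miR-140-3p. Over all genes the shares were then 7.12% and 9.51%. For miR-126-5p the counts ran from 6 to 12, the 12 without control array 1, beside 12.3% of all genes. Between the mimics they ran from 5 (without miR-126-5p array 1) to 11 (without miR-140-3p array 2), beside 5.9% and 11.3%. At the adjusted threshold leaving out 1 array gave 0 to 2 for miR-126-5p and 0 in the other comparisons. The 2 were KCNMB1 and CACNB3 without control array 1. Of the 9 arrays, control array 1 had the lowest median of the members (4.75) and of the rows with 1 symbol (5.61). Under every other alternative the adjusted count was 0. The 9 members above background became 94 with the mean of the background rows as the limit, 14 without the GC03 row (chosen after seeing the data) and 9 to 12 on leaving out an array.

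Whether the replicate numbers pair the arrays is not in the labels. Same-numbered arrays of different groups correlated at -0.06 to 0.11 in their deviations from the group means, and 2 of 9 pairs were over 0.1. Pairs with different numbers correlated at -0.15 to 0.11, and 1 of 18 was over 0.1. With the number as a replicate block the counts were 8, 10 and 7, and none passed after adjustment. In each comparison the share of members past the unadjusted thresholds was then below the share of all genes under the same setting. Quantile normalization again moved the split of all genes from 1133 higher and 1737 lower to 1470 and 1486 for miR-140-3p, and from 1217 and 2330 to 1694 and 1680 for miR-126-5p. The members' splits were then 5 and 4, and 2 and 7. Centring on the background rows gave 804 and 2110 for miR-140-3p over all genes, and 1298 and 1596 between the mimics in place of 1720 and 1359, with 2 and 4, and 6 and 1, for the members. Of 24 gene results past the unadjusted thresholds, 21 were lost under at least 1 setting and 0 reversed; KCNE3 with miR-140-3p and CACNB3 in both its comparisons were kept. The cause was not tested.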

Other observations

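Ion channel families outside the rule were also read, chosen after the annotation had been seen. Of 21 chloride channel genes, 5 were above the highest background row on all 9 arrays, as were 2 of 24 TRP cation channel genes, 0 of 6 inositol trisphosphate and ryanodine receptor genes and 0 of 2 PIEZO genes. Of 28 antisense, intronic and divergent transcripts of channel loci, 0 were above it on all arrays. None of these genes passed the adjusted threshold in any comparison (limma). At the unadjusted thresholds the antisense group had 2 genes above and 1 below the control after miR-140-3p, and 3 above and 0 below after miR-126-5p. The chloride channels had 0 past them after miR-140-3p and 2 lower genes after miR-126-5p, and the TRP channels 3 lower and 2 lower genes. Between the mimics 1 antisense transcript and 3 chloride channels were higher with miR-140-3p and 1 TRP channel lower. Of the inositol trisphosphate and ryanodine receptors 1 was above and 1 below the control after miR-140-3p, and 1 PIEZO gene was lower after each mimic. Over all genes 8.54%, 10.6% and 9.16% passed these thresholds for miR-140-3p, for miR-126-5p and between the mimics.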
